A study of Saccharomyces cerevisiae with 4 samples.

Results

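The 10 genes described here encode the J-domain proteins of the budding yeast cytosol named YDJ1, SIS1, APJ1, XDJ1, CAJ1, DJP1, ZUO1, JJJ1, JJJ3 and SWA2. They were chosen by their systematic names, and all 10 were found among the 7126 features of the deposited gene counts. Polyadenylated RNA of Saccharomyces cerevisiae was sequenced from wild-type cells (2 libraries) and from cells that carry the alleles xpo1-1 and mex67-5 together (2 libraries). Both were cultivated at 25 °C and harvested after 1 h at 37 °C. Xpo1, also called Crm1, exports proteins and some RNAs from the nucleus, and Mex67 carries most messenger RNA out of it. Both alleles sit in the same strain, so the part of each cannot be told apart, and no library from 25 °C was analysed here. Nothing in the labels ties the libraries of a strain to different cultures. The p-values therefore measure only how these libraries spread, and that spread may be technical.

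J-domain proteins, also called Hsp40 proteins, are the partners that send Hsp70 chaperones to their work. Their J domain holds a histidine-proline-aspartate motif that makes Hsp70 split ATP and close on a client protein, and the rest of each protein decides where and on which client this happens. In the yeast cytosol the Ssa Hsp70 proteins serve general folding with Ydj1 and Sis1, while the Ssb Hsp70 proteins sit on ribosomes with Zuo1. Other members have narrow tasks, such as ribosome assembly, a modification of elongation factor 2, or the uncoating of clathrin vesicles.

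The wild-type libraries held 49865570 and 49321384 reads in genes and the mutant libraries 62205252 and 50843634. Levels are given as CPM, the reads of a gene per 1000000 reads of the scaled library. Of 6563 genes tested with edgeR's quasi-likelihood test (Benjamini-Hochberg adjusted p under 0.05), 46.8% were higher in the mutant, 46.3% lower and 93.1% called in either direction, with a median log2 change of 0.01. A call alone therefore sets no gene apart here, and the size of a change carries more than its p-value. How many of all genes lacked overlap between the strains was not counted. Where a gene below is said not to overlap, this only describes its libraries. Beside the export alleles, genes that mark yeast mating types also differed between the strains. All 7 a-cell genes were higher in the mutant, with a summed level of 65.3 to 66.0 CPM in the wild type compared with 478 to 486 in mutant libraries. Of 5 alpha-cell genes 4 were lower and 1 higher, with a sum of 1871 to 1873 CPM against 458 to 474, and 0 genes of either list were without reads. In log2, BAR1 changed by 3.69, MFA2 by 5.83, MF(ALPHA)1 by -4.52, SAG1 by -2.76 and the exception AFB1 by 1.07 (edgeR). The labels name no mating type, and what belongs to the export alleles cannot be told apart from other differences between these strains. MEX67 was 12.5-fold higher in the mutant and CRM1 1.16-fold lower, which does not test the alleles, since a mutated gene can still be transcribed.

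The J-domain protein genes split widely. APJ1, SIS1, YDJ1 and SWA2 rose in the mutant, ZUO1, CAJ1, JJJ1, JJJ3 and DJP1 fell, and XDJ1 was not called. Thus 4 of 10 were higher and 5 of 10 lower, shares close to the 46.8% and 46.3% of all genes. The changes ran from -2.69 to 5.03 on the log2 scale around a median of -0.28, where the median over all genes tested was 0.01. All 10 genes passed the filter on low counts. Together they took 0.256% and 0.262% of gene reads in the wild-type libraries and 0.653% and 0.669% in the mutant libraries. Each library is scaled to its own total, so less of a transcript and more of the others cannot be told apart, nor fewer cells and less RNA per cell.

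**Figure D1:**
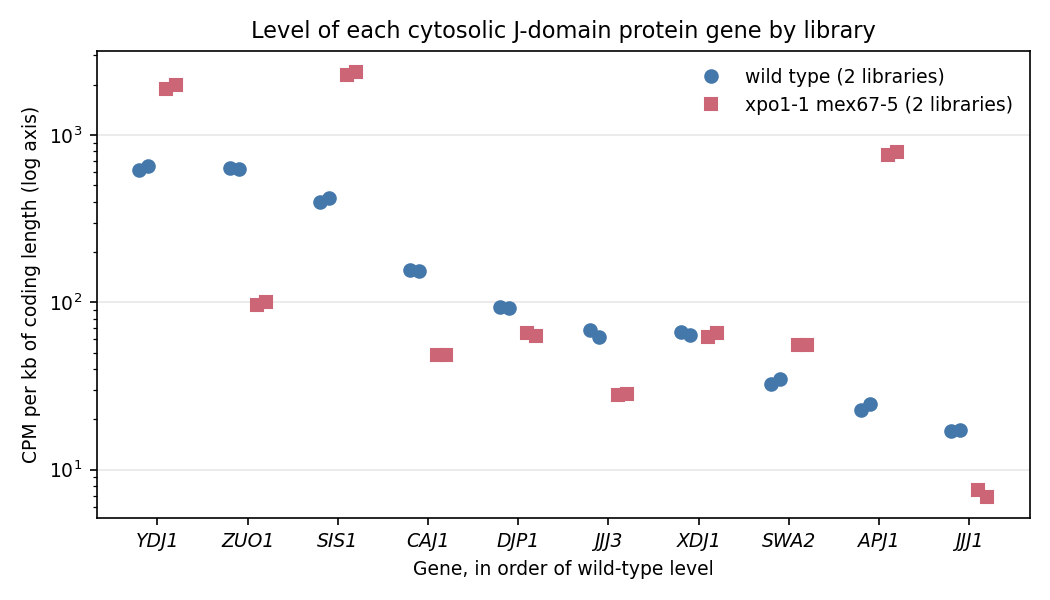
Level of each of the 10 genes in each library, in CPM per kb of coding length on a log axis, with wild-type libraries as circles and xpo1-1 mex67-5 libraries as squares. APJ1 has rank 9 in the wild type and rank 3 in the mutant. The libraries of both strains overlapped for XDJ1, and how many of all genes lacked such overlap was not counted.

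Among the 3 general partners of the Ssa proteins, the largest change was in APJ1 (YNL077W, chromosome XIV, 481391 to 482977, build R64), a scarce class A protein linked to disposal of aggregates in the nucleus. APJ1 had 36.2 and 39.2 CPM in the wild-type libraries and 1203 and 1253 in the mutant libraries. Each mutant library lay far above both wild-type libraries. The rise was 32.6-fold, a log2 change of 5.03 (SE 0.05), with an edgeR adjusted p of 7.7e-22. APJ1 went from 1795 and 1930 reads to 75661 and 63447, so counting error is small on either side.

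SIS1 (YNL007C, chromosome XIV, 618507 to 619565) is the essential class B protein, which works with Ssa and Hsp104 on aggregates and is known to help hold the heat shock factor Hsf1 in check. SIS1 had 420.1 and 444.6 CPM in the wild type and 2433 and 2520 CPM in the mutant, with no overlap between the strains. It rose 5.73-fold (log2 change 2.52, SE 0.04; edgeR adjusted p 8.1e-19). YDJ1 (YNL064C, chromosome XIV, 505868 to 507097), the abundant farnesylated class A protein that also escorts precursors to mitochondria and the endoplasmic reticulum, had 762 and 798 CPM in the wild type. In the mutant it had 2331 and 2444 CPM, again above both wild-type libraries. Its rise was 3.06-fold (log2 change 1.61, SE 0.04; edgeR adjusted p 2.9e-16). The order of these rises, APJ1 over SIS1 over YDJ1, was the reverse of their order of level per length in the wild type.

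SWA2 (YDR320C, chromosome IV, 1106095 to 1108101), the yeast auxilin that strips clathrin from vesicles, was the smallest of the rises. It had 65.1 and 69.7 CPM in the wild type and 111.5 and 111.0 CPM in the mutant. The strains did not overlap, and the log2 change was 0.72 (SE 0.04; edgeR adjusted p 7.2e-12), which is 1.65-fold.

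The stretches upstream of the 5 genes with the largest changes, and of SWA2 as the remaining gene that rose, are shown because their promoters are where heat shock elements and stress elements would be looked for. Each runs 5′ to 3′ on the gene's own strand, from 250 bases before the start codon to 50 bases from its first base on, in the RefSeq genome of build R64. Capitals mark the start codon and, in SWA2, the single match to a searched motif.
APJ1, chrXIV:481141-481440, plus strand: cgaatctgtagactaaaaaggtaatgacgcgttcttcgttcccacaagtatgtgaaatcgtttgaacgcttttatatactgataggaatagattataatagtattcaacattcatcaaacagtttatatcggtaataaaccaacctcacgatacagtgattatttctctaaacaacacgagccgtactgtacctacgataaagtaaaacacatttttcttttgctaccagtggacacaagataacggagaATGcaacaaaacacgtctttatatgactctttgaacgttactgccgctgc
SIS1, chrXIV:619516-619815, minus strand: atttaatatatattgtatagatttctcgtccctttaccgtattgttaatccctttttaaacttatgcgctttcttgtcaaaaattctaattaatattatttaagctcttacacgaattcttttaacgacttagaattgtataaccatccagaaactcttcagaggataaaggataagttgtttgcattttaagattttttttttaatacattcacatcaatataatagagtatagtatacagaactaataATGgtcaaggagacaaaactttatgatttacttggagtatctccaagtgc
YDJ1, chrXIV:507048-507347, minus strand: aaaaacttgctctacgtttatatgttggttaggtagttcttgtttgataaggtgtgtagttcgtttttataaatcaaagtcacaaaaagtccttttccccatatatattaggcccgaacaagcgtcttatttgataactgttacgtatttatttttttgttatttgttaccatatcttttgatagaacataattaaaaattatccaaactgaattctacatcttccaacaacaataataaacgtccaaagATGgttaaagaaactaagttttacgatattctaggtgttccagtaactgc
SWA2, chrIV:1108052-1108351, minus strand: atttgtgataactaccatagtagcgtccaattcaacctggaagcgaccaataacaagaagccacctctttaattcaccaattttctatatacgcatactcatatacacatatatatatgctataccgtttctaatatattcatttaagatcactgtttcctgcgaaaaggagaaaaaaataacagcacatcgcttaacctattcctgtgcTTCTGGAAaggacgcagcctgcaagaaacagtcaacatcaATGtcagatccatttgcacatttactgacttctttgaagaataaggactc
ZUO1, chrVII:1063104-1063403, minus strand: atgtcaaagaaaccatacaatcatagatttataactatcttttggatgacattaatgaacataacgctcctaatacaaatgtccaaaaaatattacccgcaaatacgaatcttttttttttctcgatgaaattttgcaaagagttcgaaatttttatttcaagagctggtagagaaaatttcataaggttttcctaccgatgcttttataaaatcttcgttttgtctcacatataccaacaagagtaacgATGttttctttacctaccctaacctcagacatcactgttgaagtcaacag
CAJ1, chrV:248108-248407, minus strand: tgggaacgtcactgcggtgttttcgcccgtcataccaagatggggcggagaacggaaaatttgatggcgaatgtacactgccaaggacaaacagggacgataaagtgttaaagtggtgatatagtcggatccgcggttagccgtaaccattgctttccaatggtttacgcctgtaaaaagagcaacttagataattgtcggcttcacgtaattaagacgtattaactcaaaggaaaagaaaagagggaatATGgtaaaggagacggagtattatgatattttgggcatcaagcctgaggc

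Both strands of these windows were searched for fixed letters in all 10 genes and in 6001 protein-coding genes. The 2-unit heat shock element GAANNTTC stood in 0 of 10 windows and in 11.8% of all windows, and its outward form TTCNNGAA in 2 of 10, JJJ3 and SWA2, and in 12.9% of all. In SWA2 the match began 40 bases before the start codon, and in JJJ3, which fell, 216 bases before it. The 3-unit form GAANNTTCNNGAA, which holds both 2-unit forms, was in 0 of 10 and in 0.783% of all. The stress response element AGGGG was in 2 of 10, DJP1 and JJJ1, against 21.6% of all; both genes fell, and the JJJ1 match lies in the coding part. The PAC core GATGAG and the RRPE core AAAATTTT, common in ribosome assembly promoters, were in 0 of 10 against 20.4% and 9.03% of all, and the Rpn4 box GGTGGCAAA in 0 of 10 against 1.2%. A missing match says only that these exact letters are not in this window, since working elements often depart from them.

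The gene with the largest fall was ZUO1 (YGR285C, chromosome VII, 1061852 to 1063153), the ribosome-bound J-domain protein that forms the ribosome-associated complex with Ssz1 and drives the Ssb proteins on nascent chains. ZUO1 had 832 and 816 CPM in the wild type and 125 and 130.2 CPM in the mutant. Both mutant libraries lay far below both wild-type libraries. It fell 6.46-fold, a log2 change of -2.69 (SE 0.04; edgeR adjusted p 6.4e-20).

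CAJ1 (YER048C, chromosome V, 246982 to 248157), a class B-like protein of the cell periphery related to Djp1, came next. CAJ1 had 183 and 182 CPM in the wild type and 57.3 and 56.8 CPM in the mutant, without overlap. It fell 3.20-fold (log2 change -1.68, SE 0.04; edgeR adjusted p 1.3e-17).

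JJJ1 and JJJ3, both tied to the translation machinery, fell by nearly the same amount. JJJ1 (YNL227C, chromosome XIV, 220659 to 222431), which helps Rei1 release the export factor Arx1 from new large ribosomal subunits, had 30.3 and 30.5 CPM in the wild type compared with 13.5 and 12.2 in mutant libraries. JJJ3 (YJR097W, chromosome X, 612413 to 612931), also called DPH4 and needed to make diphthamide on elongation factor 2, had 35.4 and 32.4 CPM in the wild type compared with 14.5 and 14.7 in mutant libraries. Neither gene had overlapping strains. The log2 change was -1.24 (SE 0.06) for JJJ1 and -1.21 (SE 0.06) for JJJ3, with edgeR adjusted p-values of 2.1e-12 and 2.0e-12. JJJ1 had the lowest level of the 10, with 620 to 1502 reads a library. The gene counts also list YNL228W and YNL226W, next to JJJ1 in systematic numbering, with 2 to 8 and 5 to 86 reads. Neither stands in the annotation used here, so whether they overlap JJJ1 was not checked. The sources used here do not give how reads in overlapping features were counted, so the level of JJJ1 may be too low. SWA2 likewise has a numbered neighbour outside the annotation, YDR320W-B, where wild-type libraries held 39 and 34 reads and mutant libraries 202 and 156.

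DJP1 (YIR004W, chromosome IX, 363221 to 364519), which aids import into peroxisomes and carries mitochondrial precursors on the surface of the endoplasmic reticulum, had 122 and 120.1 CPM in the wild type. It had 85.8 and 81.3 CPM in the mutant, below both. Its fall was 1.45-fold (log2 change -0.53, SE 0.04; edgeR adjusted p 3.6e-10). XDJ1 (YLR090W, chromosome XII, 320701 to 322080), a class A protein that binds the mitochondrial import receptor Tom22, had 91.3 and 87.8 CPM in the wild type and 85.1 and 90.6 CPM in the mutant. The strains overlapped, with a log2 change of -0.03 (SE 0.04; edgeR adjusted p 0.48). Its sign turned to 0.07 with upper-quartile scaling and to 0.01 without mutant replicate 1, and with a filter at 10 CPM it was called higher (0.10, edgeR adjusted p 0.0212), so no direction is given for it.

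**Figure D2:**
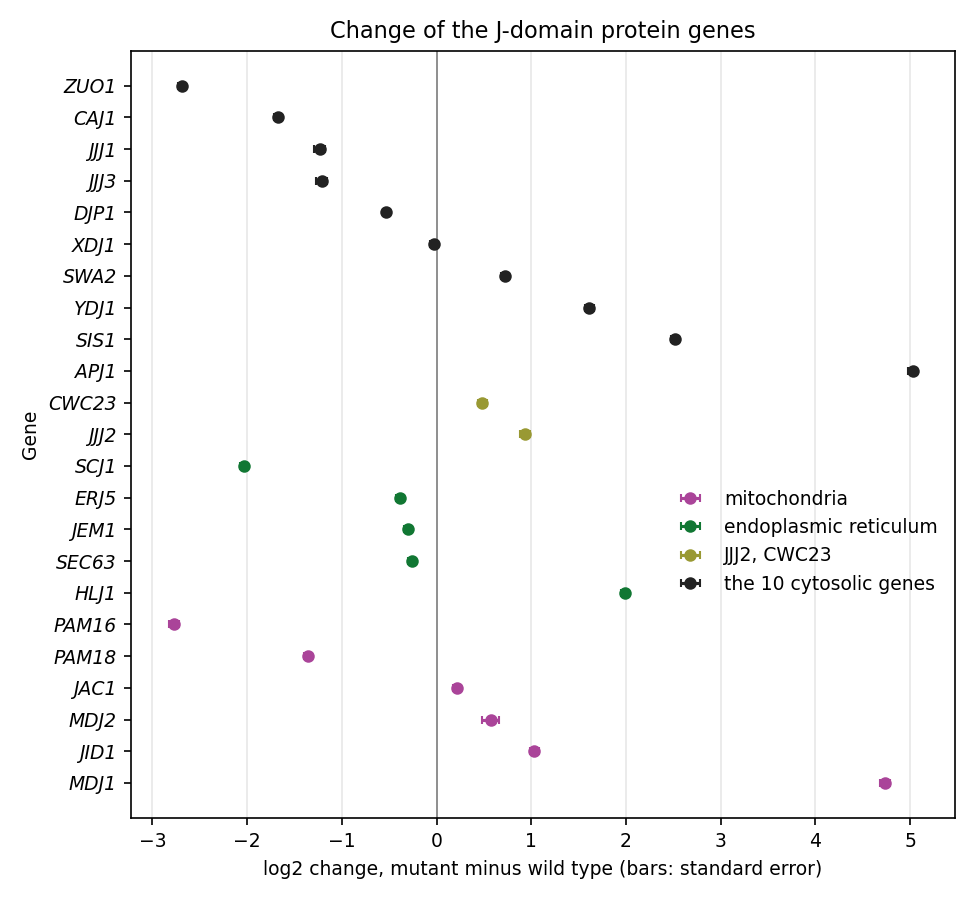
Change of each J-domain protein gene, as log2 mutant minus wild type with its standard error, for the 10 cytosolic genes (black) and 13 others by compartment. The cytosolic genes spread from -2.69 (ZUO1) to 5.03 (APJ1), and the mitochondrial ones from -2.77 (PAM16) to 4.74 (MDJ1).

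Per length, the order of the 10 genes was rearranged in the mutant. In the wild type, YDJ1 (634 ± 21.1 CPM per kb of coding length, SD, n = 2) and ZUO1 (633 ± 8.61) did not differ beyond their spread, followed by SIS1 (408 ± 16.4) and CAJ1 (155 ± 0.672). DJP1 stood at 93.1 ± 0.911, and JJJ3 (65.3 ± 4.13) and XDJ1 (64.9 ± 1.78) again did not differ beyond their spread. SWA2 (33.6 ± 1.60), APJ1 (23.8 ± 1.32) and JJJ1 (17.1 ± 0.0654) closed the order. In the mutant SIS1 (2339 ± 58.0 CPM per kb) stood above YDJ1 (1941 ± 65.2), and APJ1 (774 ± 22.3) had moved to rank 3. ZUO1 had rank 4 at 98.1 ± 2.73, 7.89-fold below APJ1. DJP1 (64.3 ± 2.42) and XDJ1 (63.7 ± 2.78) did not differ beyond their spread, and SWA2 (55.4 ± 0.173), CAJ1 (48.5 ± 0.343), JJJ3 (28.2 ± 0.296) and JJJ1 (7.26 ± 0.493) followed. JJJ1 was last in both strains, though its level may be too low if reads in overlapping features were left out.

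The summed level of the 10 genes was 2111 and 2145 CPM per kb in wild-type libraries and 5314 and 5524 in mutant ones, on average 2.55 times as high. In the wild type YDJ1 made up 29.8% ± 0.651 (SD, n = 2) of that sum, ZUO1 29.7% ± 0.745, SIS1 19.2% ± 0.549 and APJ1 1.12% ± 0.0492. In the mutant SIS1 made up 43.2% ± 0.108, YDJ1 35.8% ± 0.226, APJ1 14.3% ± 0.0224 and ZUO1 1.81% ± 0.00105. The other 6 genes shared 20.2% ± 0.505 in the wild type compared with 4.94% ± 0.141 in mutant libraries. The YDJ1 to SIS1 ratio went from 1.56 and 1.55 in the wild-type libraries to 0.825 and 0.835 in the mutant libraries. With 2 libraries a strain, an exact permutation test cannot go below a two-sided p of 0.333, so these shares and ratios are given without a test.

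**Figure D3:**
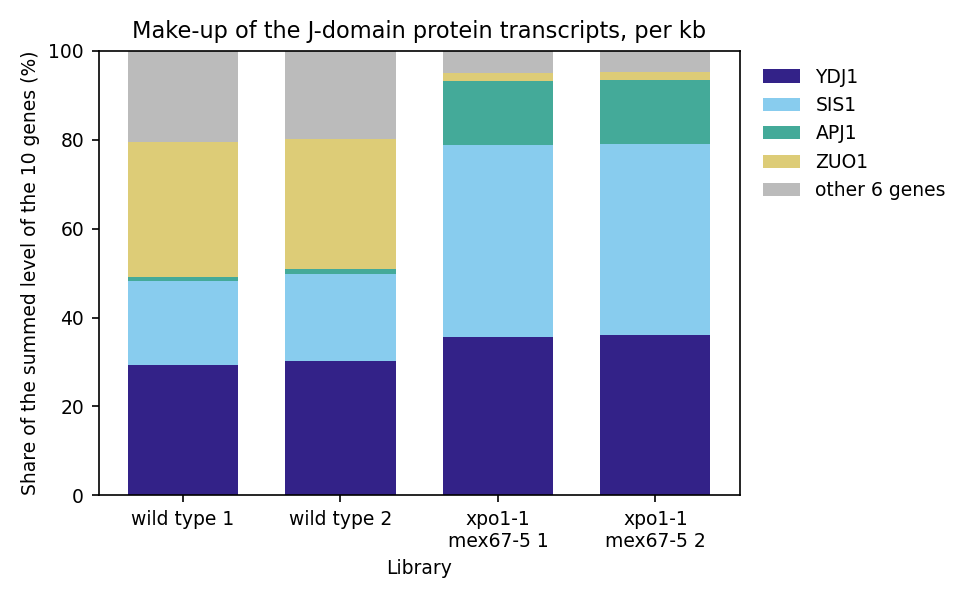
Share of YDJ1, SIS1, APJ1, ZUO1 and the other 6 genes in the summed level of the 10 genes (percent, CPM per kb), 1 bar for each library. ZUO1 takes 29.7% on average in the wild type compared with 1.81% in mutant libraries, and APJ1 1.12% and 14.3%.

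The lists of partner genes below were chosen by function, with earlier results of these data known. Their counts are given as a description, not as a test. Of 7 cytosolic Hsp70 genes, 4 were higher and 3 lower, against 46.8% and 46.3% of all genes tested. All 4 SSA genes rose, SSA4 62.9-fold, SSA3 12.8-fold, SSA1 11.6-fold and SSA2 6.45-fold, while SSB1 fell 7.04-fold, SSB2 8.34-fold and SSZ1 6.85-fold. SSA1 and SSA2, and likewise SSB1 and SSB2, are near-identical pairs, and how reads that fit both genes were counted is not given. Sums are used in case such reads were split. If they were left out, the sums of the SSA and SSB genes and their ratios to J-domain protein genes would be too low. The 4 SSA genes summed to 1711 and 1794 CPM per kb in the wild type compared with 19720 and 20784 in mutant libraries. Per unit of YDJ1 plus SIS1 this was 1.68 in both wild-type libraries and 4.70 and 4.76 in the mutant libraries, so the SSA transcripts gained more than those of their 2 main J-domain partners.

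ZUO1 and SSZ1, whose products form 1 complex, stayed close to each other: their ratio per kb was 1.43 ± 0.00820 (SD, n = 2) in the wild type compared with 1.52 ± 0.0199 in mutant libraries. The 2 SSB genes per ZUO1 came to 1.87 and 1.90 in the wild type, and then to 1.59 and 1.52 in the mutant. Of 6 other genes that act on nascent chains, 5 fell and BTT1 rose 1.45-fold, with a median log2 change of -1.94. The share of all genes tested that fell was 46.3%. EGD1 and EGD2, the main subunits of the nascent polypeptide-associated complex, fell 6.69-fold and 4.41-fold, and MAP1, which removes the first methionine, 4.60-fold.

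Exchange factors, which reset Hsp70 after a J-domain protein has acted, rose in 3 of 4, against 46.8% of all genes tested. FES1 rose 18.7-fold, SSE2 12.8-fold and SSE1 3.64-fold, and SNL1, anchored in the nuclear envelope and endoplasmic reticulum, fell 1.18-fold. All 6 genes of the list of disaggregation and aggregate sorting, to which HSF1 was added, rose, with a median log2 change of 5.39. Here too the share over all genes tested was 46.8%. HSP104, the disaggregase that acts with Ssa and Sis1, rose 32.1-fold, BTN2, an aggregate sorting factor, 229-fold, HSP26, a small heat shock protein, 55.0-fold and HSF1 itself 2.44-fold. HSP104 was also the gene whose pattern over the 4 libraries was most like that of APJ1. Its distance, over log2 CPM centred on each gene's mean, was 0.0554 among 5519 genes, followed by YER066C-A (0.0779) and YPK2 (0.0999). HSP104 stood at 12.6 and 12.0 times APJ1 per kb in the wild type and at 12.0 and 12.2 times in the mutant. With 4 libraries in 2 groups such likeness is mostly that of the size of change.

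Genes of late large-subunit assembly, where Jjj1 acts, all fell, against 46.3% of all genes tested. The 9 genes had a median log2 change of -2.39, with NMD3, an adaptor of Xpo1 for large-subunit export, down 10.9-fold, ALB1 7.99-fold, REI1 6.49-fold and ARX1 4.09-fold. JJJ1 fell less, with a log2 change of -1.24 against -2.70 for REI1. The ratio of JJJ1 to REI1 per kb went from 0.174 and 0.179 in the wild type to 0.526 and 0.446 in the mutant. It would be too low if reads of JJJ1 in overlapping features were left out. REI1 was among the 3 genes most like ZUO1 in pattern (distance 0.0301), with BCP1 (0.0244) and ARO8 (0.0309). For diphthamide, all 8 genes of the list fell beside JJJ3, with a median of -1.78, where 46.3% of all genes tested fell. DPH1 fell 4.04-fold, DPH2 2.66-fold, KTI11 4.70-fold, DPH5 2.21-fold, DPH6 2.92-fold and RRT2 2.41-fold. EFT1 and EFT2, which encode the modified elongation factor and are near-identical, fell 6.91-fold and 6.35-fold.

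Clathrin and organelle import genes moved less and in both directions. Of 10 genes of clathrin coats 5 rose and 5 fell, with a median log2 change of 0.27. Over all genes tested 46.8% were higher and 46.3% lower, so this split does not set the clathrin genes apart. CHC1, the clathrin heavy chain, rose 1.53-fold, close to SWA2, and the ratio of CHC1 to SWA2 per kb was 1.08 ± 0.0506 (SD, n = 2) in wild-type libraries and 1.00 ± 0.00869 in mutant ones. CLC1, the light chain, fell 2.69-fold, while YAP1801 and YAP1802, adaptors of endocytosis, rose 3.02-fold and 2.93-fold. ARK1, a kinase of the endocytic coat, fell with a log2 change of -0.95. With a filter at 10 CPM, 3 of the 10 were lower rather than 5. Of 8 genes of peroxisome and mitochondrial import, 2 rose and 6 fell, against 46.8% and 46.3% of all genes tested. Their median was -0.32. Of the 8, 4 were called lower with a filter at 10 CPM and 5 with upper-quartile scaling. PEX5, the receptor for peroxisomal matrix proteins, rose 1.83-fold and PEX13, of its docking complex, had a log2 change of 0.34, while TOM40, the pore of the mitochondrial outer membrane, had one of -1.32. TOM22, the partner of Xdj1, fell 2.62-fold and TOM70 1.14-fold.

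**Figure D4:**
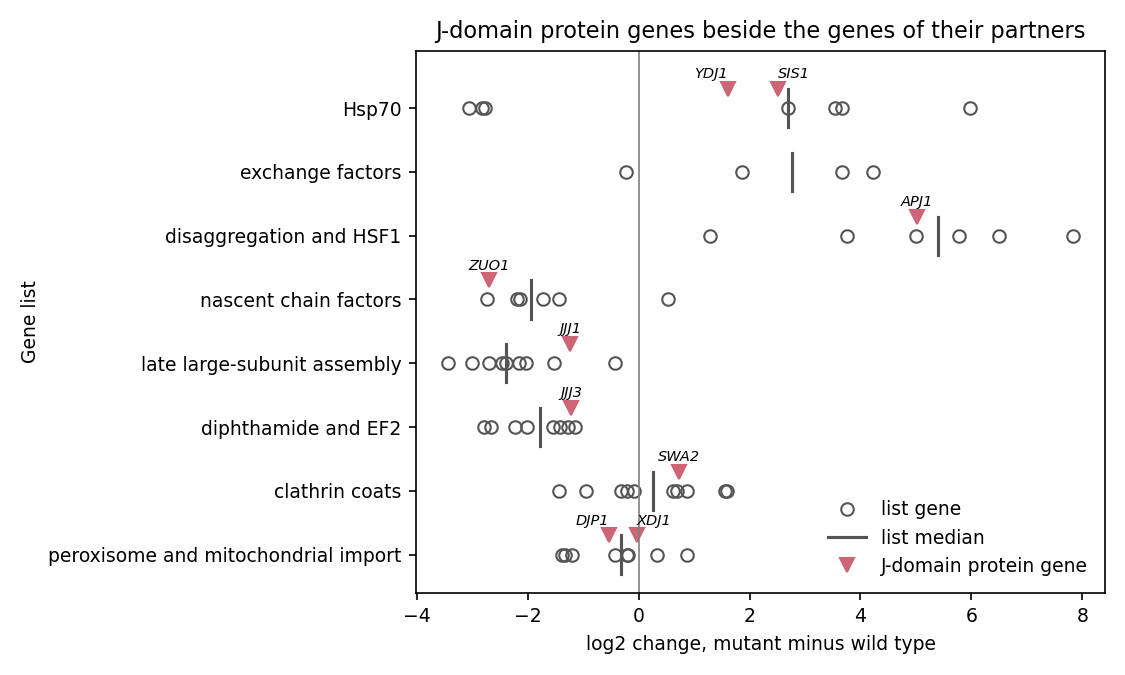
Log2 change (mutant minus wild type) of the genes of the partner lists as open circles, with a bar at each list's median. Triangles are J-domain protein genes, each placed beside a single list chosen by function, and CAJ1 is not drawn. SIS1 (2.52), which also acts with Hsp104, is drawn only beside the Hsp70 genes. ZUO1 at -2.69 lies beside nascent chain factors with a median of -1.94, and APJ1 at 5.03 beside disaggregation genes with a median of 5.39.

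Of the other 13 J-domain and J-like protein genes of the cell, 7 were higher and 6 lower, with a median log2 change of 0.22. Over all genes tested 46.8% were higher and 46.3% lower, so this split does not set them apart. MDJ1, the main J-domain protein of the mitochondrial matrix, rose 26.7-fold, and HLJ1, in the endoplasmic reticulum membrane with its J domain in the cytosol, rose 3.96-fold. PAM16 and PAM18, of the mitochondrial import motor, fell 6.84-fold and 2.57-fold, while JID1 rose with a log2 change of 1.03. In the endoplasmic reticulum SCJ1, which aids folding in the lumen, fell 4.11-fold, and ERJ5, another J-domain protein there, had a log2 change of -0.39, so 4 of 5 genes there fell and HLJ1 rose. JJJ2, of unclear function, and CWC23, a spliceosome disassembly factor, rose 1.91-fold and 1.40-fold.

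The genes that flank the 10 were compared next, because strand was not marked and reads that run past a gene's end can be counted in its neighbour. Of 20 nearest annotated features 19 had counts matched by name; the other is a transfer RNA gene upstream of CAJ1. Among the 19, 10 rose, 6 fell and 3 were not called, and in 14 cases both the flanking gene and the J-domain protein gene were called. They went in the same direction in 8 of these 14. Over all 4410 pairs of adjacent genes at most 1000 bases apart in which both were called, 58.6% went in the same direction, as a description of pairs that share libraries.

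The region past the end of SIS1 stood out in size. ASI3 (chromosome XIV, 616211 to 618241), a membrane protein of the inner nuclear envelope encoded on the same strand 265 bases beyond the SIS1 coding end, had 70.5 and 71.3 CPM in the wild type compared with 2142 and 2171 in mutant libraries. It rose 30.4-fold (log2 change 4.93, SE 0.04; edgeR adjusted p 4.0e-22), more than SIS1 itself. IDP3 (chromosome XIV, 614821 to 616083), a peroxisomal isocitrate dehydrogenase on the opposite strand beyond ASI3, was looked at after its values were seen. IDP3 had 18.3 and 17.6 CPM in the wild type and 1250 and 1307 CPM in the mutant, a log2 change of 6.15 (SE 0.05; edgeR adjusted p 3.0e-22). Per kb the mutant libraries held 2298 and 2380 CPM in SIS1, 1055 and 1069 in ASI3 and 989 and 1035 in IDP3, while the wild type held 397 and 419.8, 34.7 and 35.1, and 14.5 and 13.9. The level per kb thus fell from SIS1 to ASI3 in both strains, and ASI3 and IDP3 were nearly level in the mutant. Which transcript and strand gave these reads was not tested.

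Around the other genes that rose, neighbours changed less than that. On the upstream side of SIS1, LST8, a subunit of the TOR complexes read in the opposite direction from the same intergenic stretch, rose 3.59-fold. MTQ1, read away from YDJ1 in the same way, rose 4.04-fold, and AQR1, which ends towards the end of YDJ1, had a log2 change of 0.02 and was not called. Both NIS1 upstream and MKS1 downstream of APJ1 rose, by 3.35-fold and 3.09-fold. Around ZUO1 the neighbours went apart: ERV29 downstream fell (log2 change -0.80) and BIO2 upstream, which encodes biotin synthase, rose (1.27). Both neighbours of SWA2, YFT2 and DAD4, fell (log2 change -0.85 and -0.75) while SWA2 rose. Both neighbours of JJJ3, YJR096W and YJR098C, rose (1.32 and 0.72) while JJJ3 fell. URE2 downstream of JJJ1 and SAP1 downstream of CAJ1 fell with them (-0.66 and -0.32), and AIM21 upstream of DJP1 rose (1.14). CNM67 beside JJJ1 (0.01) and IST3 beside DJP1 (0.08) were not called. Beside XDJ1, ALT1 fell (-0.88) and GEP5 rose (0.53).

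**Figure D5:**
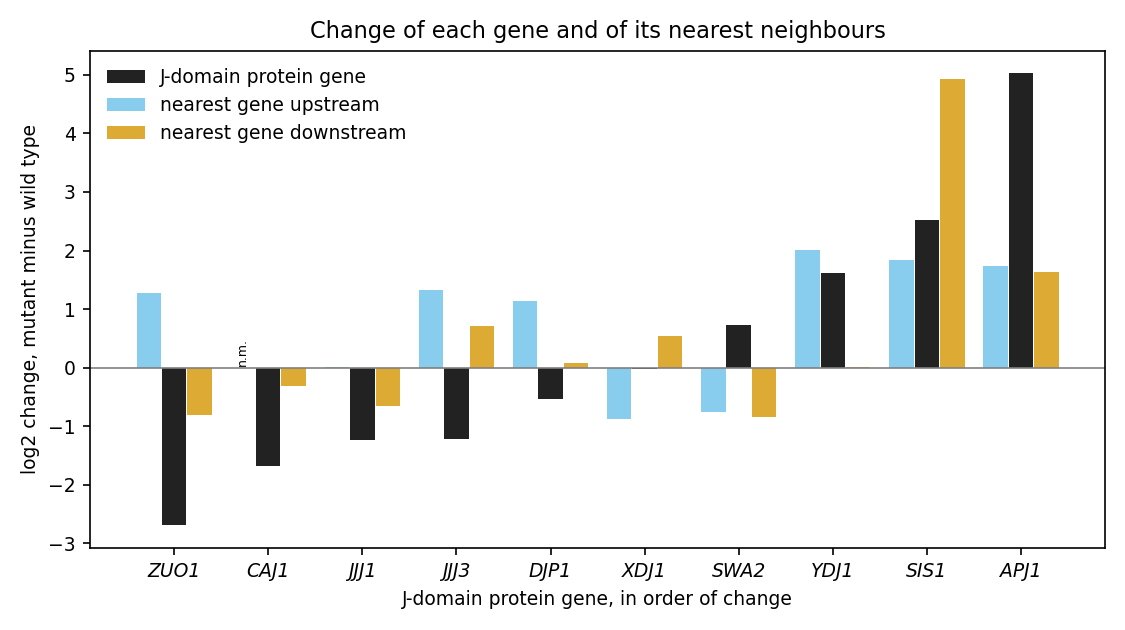
Log2 change (mutant minus wild type) of each J-domain protein gene and of the nearest annotated gene upstream and downstream of it, with n.m. where the neighbour's counts were not matched. The bar downstream of SIS1, ASI3 at 4.93, is the tallest of the flanking genes, and the neighbours of ZUO1 point in both directions.

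None of the 10 genes has an intron in the annotation or a record among the 358 deposited intron counts, so the intron counts hold no value for them.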

How the data were processed

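Per the labels, polyA RNA was prepared with a TruSeq v2 kit, whose libraries carry no strand mark, and sequenced from 1 end for 50 bases. What the authors deposited are raw counts, 1 gene file and 1 intron file for each of 4 libraries. Named without a role in the submitters' processing notes are STAR 2.5, featureCounts, bcl2fastq 2.17, DESeq2 1.8.2 and build R64. Of 7126 features, 6006 matched a nuclear RefSeq gene by ID. In 355 of 358 intron records the gene has a gap between coding parts, and all 355 start at that gap, so the RefSeq coordinates of R64 were used.

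Groups came from the genotype in the titles. Libraries of a strain were not copies of each other: chi-square over degrees of freedom was 10.3 (wild type) and 7.1 (mutant), above sampling noise. The spread was still small, with an edgeR biological coefficient of variation of 2.95%. Whether it arose between cultures or in library preparation was not tested. The test was edgeR 4.0.16's quasi-likelihood test in R 4.3.3, after filterByExpr and TMM, with a robust fit on group alone, two-sided, Benjamini-Hochberg over all 6563 genes tested at 0.05; the SE is the log2 change over the square root of F. CPM use the TMM-scaled library size, and levels per kb the coding length. The steps were first tested on simulated data. The 10 genes, the 13 lists and the tests were chosen with earlier results of these data known. Named were the 10 genes, their direct partners, in each list the 2 genes with the smallest adjusted p in each direction and, where 3 or fewer went against the majority, all of those, both nearest features, and, for the largest rise and fall, the 3 genes most like it in pattern (log2 CPM with prior count 2, averaging 3 or more). Chosen after their values were seen were IDP3, YNL228W, YNL226W and YDR320W-B. Alternatives were other scalings (RLE, upper-quartile, total counts), DESeq2 1.42.0, other filters (none, 10 CPM in 2 libraries), a non-robust fit, a replicate block and leaving out each library. Figures were drawn with matplotlib 3.10.9.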

Additional observations from a re-analysis of the deposited data

How the results depend on the processing

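The 10 log2 changes were recomputed under 12 alternatives, which gave 120 values. Of these 117 kept direction and side of the threshold. The exceptions were all XDJ1 (main value -0.03): 0.0717 with upper-quartile scaling, 0.104 with a filter at 10 CPM, and 0.0114 without mutant replicate 1. Leaving out each library in turn gave -0.0756 to 0.0114 for XDJ1. Upper-quartile scaling moved the median of all genes from 0.01 to 0.12. The other ranges were 4.96 to 5.16 for APJ1, 2.47 to 2.65 for SIS1, 1.57 to 1.75 for YDJ1 and -2.72 to -2.56 for ZUO1. Without division by length, the summed level was 2599 CPM (wild type) and 6587 (mutant); the shares were then 36.2% for YDJ1 in the mutant, 16.6% and 37.6% for SIS1 (wild type, mutant), 1.45% and 18.6% for APJ1, 31.7% and 1.94% for ZUO1, and 5.58% for the other 6 genes in the mutant. Without ZUO1 and YDJ1, the sum was 861 and 3380 CPM per kb, and the shares were 47.4% and 69.2% for SIS1, 2.76% and 22.9% for APJ1, and 49.9% and 7.91% for the other 6 genes. Clathrin coat genes called lower were 5 in the main analysis, 3 with the filter at 10 CPM and 4 or 5 under the other alternatives. Replicate numbers did not pair the libraries by any label; deviations of same-numbered libraries had a correlation of -0.0264 across genes. With the replicate block 3075 genes were called higher and 3034 lower, against 3070 and 3039 without it. The lowest count, 620 reads, limits JJJ1 most, and its level may also be too low if reads in overlapping features were left out.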
